A study of Mus musculus with 6 samples.

Results

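Transcript levels of the epidermal growth factor (EGF) family and its receptors were followed in MLE12 cells, an immortalised mouse lung epithelial line. The set held 10 genes, taken by symbol from a count table of 46078 genes. They were 7 ligand genes, Areg, Ereg, Hbegf, Tgfa, Btc, Epgn and Nrg1, and 3 receptor genes, Egfr, Erbb2 and Erbb3. All 10 were listed in the count table. Of these, 9 had a mean of at least 1 CPM (counts per 1000000 scaled reads) over the 6 libraries, and Epgn did not. The same 9 were listed in a second table of the authors, which gives expression per gene length.

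The 6 libraries formed 6 groups of 1 library each. Wild-type (parental) MLE12 monolayers were collected un-scratched or 24 hours after a scratch with a pipet tip. The other 4 groups were MLE12 lines with a knockout of Lingo1, Lingo2, Lingo3 or TROY, each collected 24 hours after a scratch, and the series title places these receptors in control of epithelial wound healing. How the knockouts were made, and whether each line was 1 clone, is not given in the sources used here. With 1 library per line, genotype, line and culture cannot be told apart, and no p-value was computed.

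EGF family ligands are made as membrane-anchored precursors and released by cell-surface proteases, chiefly ADAM17 and ADAM10. They bind receptor tyrosine kinases of the ERBB family, which then pair, phosphorylate each other and signal through the RAS-ERK and PI3K branches. Amphiregulin, TGF-alpha and epigen bind EGFR, betacellulin, epiregulin and HB-EGF bind EGFR and ERBB4, and neuregulin 1 binds ERBB3 and ERBB4. ERBB2 has no known ligand of its own and serves as the preferred partner of the other receptors. In airway and alveolar epithelium, EGFR ligands are known for driving cell migration and proliferation during wound closure.

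Each library held between 28109825 and 30776294 reads counted in genes. Of the knocked-out genes, Lingo1 had 791 and 744 counts in the un-scratched and scratched parental libraries and 1579, 1469, 1564 and 1044 in the Lingo1, Lingo2, Lingo3 and TROY knockouts, so its transcript was not lost in its own knockout and was also above the parental level in the others. Lingo2 had 0 counts in all 6 libraries, Lingo3 had 1 count in all and Tnfrsf19, which encodes TROY, had 13 in all, so transcript levels gave no check of the labels. Epithelial Cdh1, Krt8 and Krt19 were abundant in every library, with summed levels of the 6 epithelial markers between 2060 CPM and 2932 CPM. The other epithelial markers were low: Epcam stood at 3.91 to 8.46 CPM, Krt18 had 9 to 14 counts and Cldn7 at most 1 count. Of 8 alveolar type II cell markers, 5 reached 1 CPM in every library, and Sftpd, which encodes surfactant protein D, had 0 counts in all. The fibroblast gene Dcn (2532 to 3321 CPM) and the mesothelial gene Upk3b (1542 to 2187 CPM) were also abundant in all 6, and the 5 leukocyte markers summed to at most 1.20 CPM. The 6 fibroblast markers summed to 2579 CPM in the scratched parental library and to between 2745 and 3462 CPM in the knockouts, and the 6 epithelial markers to 2060 and to between 2753 and 2932 CPM. Dcn dominates the fibroblast sum. Col1a1 stood at 44.8 CPM in the scratched parental library and at 170, 136, 398 and 146 CPM in the Lingo1, Lingo2, Lingo3 and TROY knockouts, and Pdgfrb had 1 count against 52, 37, 348 and 13. Pdgfra stood at 1.71 CPM against 2.49, 3.04, 6.69 and 2.63 CPM. The other fibroblast markers did not follow: Thy1 had 19 counts against 15, 23, 8 and 15, and Col1a2 had at most 3 counts in any library. The type II cell gene Sftpb stood at 35.6 CPM against 164, 144, 164 and 87.0 CPM in the same order, and Sftpc was called in the Lingo1, Lingo2 and Lingo3 knockouts, at 40.7, 42.0 and 81.9 against 18.3 CPM. The part of these differences in the results below was not tested.

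A gene was called higher or lower when its scaled counts differed at least 2 times and the 95% interval of that ratio stayed more than 1.5 times away from 1. The intervals are exact binomial (Clopper-Pearson) intervals of the 2 counts and cover counting error only, since no culture was repeated and reads are not independent molecules. Counting error is small at this depth: between the 2 parental libraries, 33.7% of the 12078 genes tested (mean level 1 CPM or more) had an interval that left out 1, and between each knockout and the scratched parental library 59.4% to 70.6% did. The 4 knockout comparisons share the scratched parental library, so each is given with its own values.

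In the parental line, Nrg1 was the 1 member of the 9 that was higher after the scratch, against 0.0662% of all genes tested, and none was lower, against 0.0166%. In the Lingo1 knockout 3 members were higher (background 1.95%) and 1 was lower (1.67%). In the Lingo2 knockout 3 were higher (2.12%) and 1 was lower (1.38%). In the Lingo3 knockout 2 were higher (4.63%) and 1 was lower (2.56%). In the TROY knockout 1 was higher (1.06%) and none was lower (1.18%). The genes higher in knockouts were the EGFR ligands Areg, Ereg, Hbegf and Tgfa in different combinations, and the gene that was lower was the receptor Egfr. The members were chosen with earlier results of these data known, so the shares beside their counts are for scale and test nothing.

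**Figure D1:**
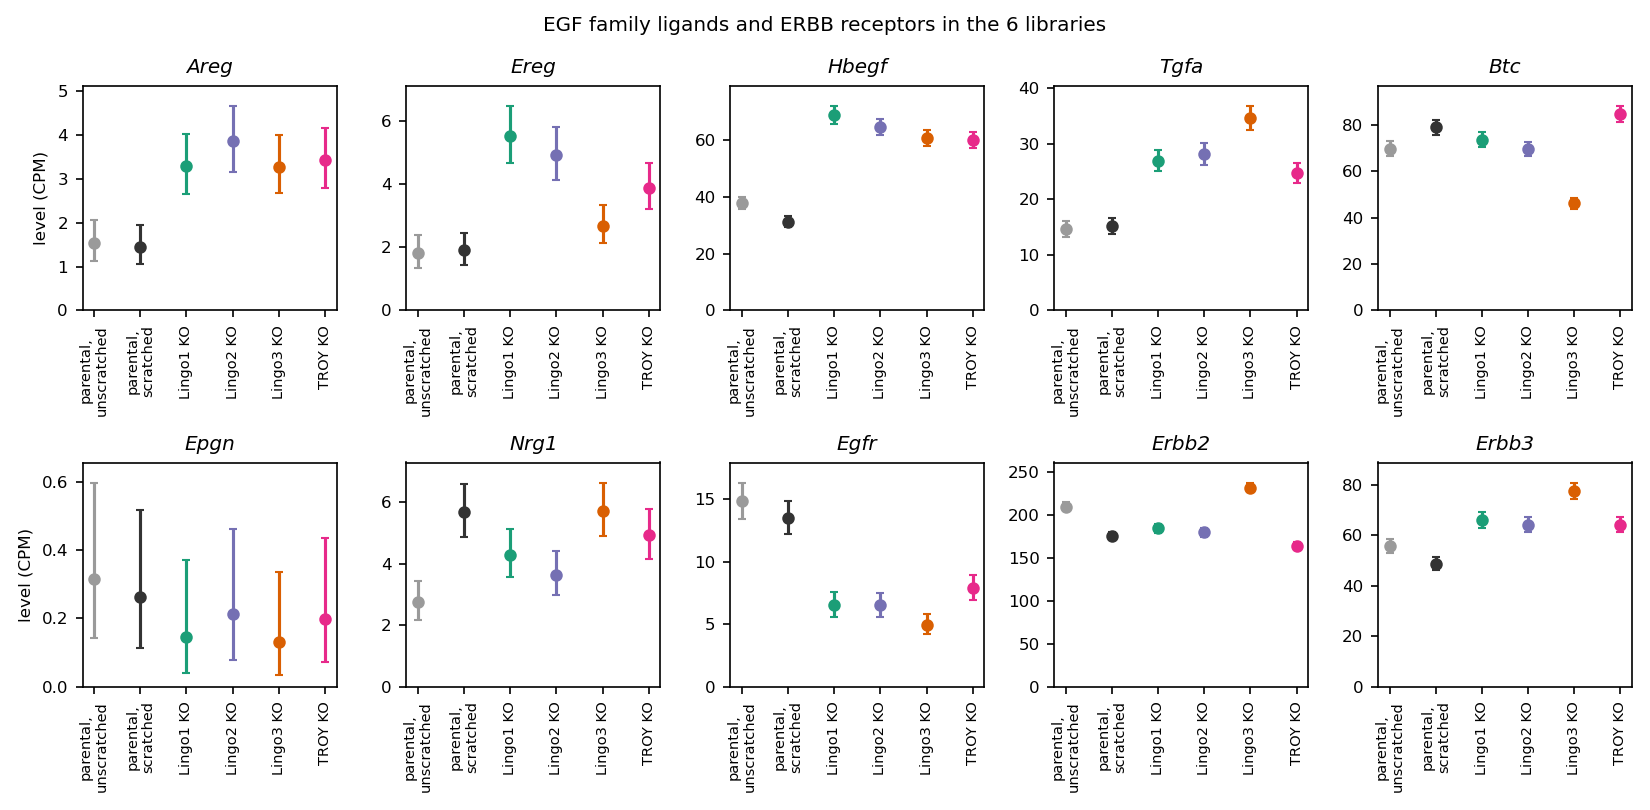
Level of each of the 10 genes (vertical axis, CPM, starting at 0) in each of the 6 libraries (horizontal axis); points are single libraries and bars are 95% Poisson counting intervals. Areg, Hbegf and Tgfa lie above both parental libraries in all 4 knockout libraries, and Egfr lies below them.

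Areg encodes amphiregulin, a ligand of EGFR with an affinity for heparin (chromosome 5, 91139599 to 91148432, plus strand, GRCm38). It had 44 counts in each parental library and 91, 109, 100 and 103 in the Lingo1, Lingo2, Lingo3 and TROY knockouts. These correspond to 1.54 CPM un-scratched, 1.45 CPM scratched, and 3.28, 3.86, 3.28 and 3.42 CPM in the knockouts. Areg was the 1 member called higher in every knockout. The folds against the scratched parental library were 2.27 (1.57 to 3.33) in the Lingo1, 2.67 (1.86 to 3.88) in the Lingo2, 2.27 (1.58 to 3.31) in the Lingo3 and 2.37 (1.65 to 3.45) in the TROY knockout. In bulk RNA, more transcript per cell and more cells that carry the transcript cannot be told apart. In the order of the levels, the 4 knockouts did not differ from their neighbours beyond counting error, nor did the parental libraries from each other. The gap lay between the lowest knockout (Lingo3) and the un-scratched parental library, at 2.14 (1.48 to 3.12). With the un-scratched library as control, the Lingo1 and Lingo3 knockouts therefore missed the rule by their lower bounds, while Lingo2 (2.51) and TROY (2.23) passed.

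Ereg encodes epiregulin and lies 46 kb upstream of Areg (chromosome 5, 91074622 to 91093646, plus strand). It had 52 counts in the un-scratched and 58 in the scratched parental library, at 1.81 and 1.91 CPM. In the knockouts it had 153, 139, 82 and 117 counts for Lingo1, Lingo2, Lingo3 and TROY, at 5.52, 4.92, 2.69 and 3.89 CPM. Unlike Areg, Ereg was spread out among the knockouts. It was higher in the Lingo1 (2.90, 2.13 to 3.99) and Lingo2 (2.58, 1.89 to 3.57) knockouts. In the TROY knockout the fold was 2.04 with a lower bound of 1.48, just short of the rule, whereas against the un-scratched library it was 2.14 (1.53 to 3.03) and passed. In the Lingo3 knockout the fold against the scratched library was 1.41 (0.996 to 2.01). The Lingo1 knockout exceeded the Lingo3 knockout by 2.05 (1.56 to 2.72), which passes the size rule between 2 knockout libraries. Lingo1 and Lingo2 did not differ beyond counting error, nor did Lingo2 and TROY. Lingo1 exceeded TROY by 1.42 (1.11 to 1.82), and TROY exceeded Lingo3 by 1.45 (1.08 to 1.94). The exons of Ereg share 141 bases with the antisense gene Gm19610, and whether the counting used strand is not given in the sources used here.

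Btc, which encodes betacellulin, lies at the far end of the same cluster on the opposite strand (chromosome 5, 91357261 to 91402994, minus strand). Its levels were 69.8 CPM un-scratched and 78.9 CPM scratched in the parental line, and 73.7, 69.5, 46.2 and 84.7 CPM in the Lingo1, Lingo2, Lingo3 and TROY knockouts. Btc was called in no comparison. The Lingo3 knockout stood apart from the rest, with a fold of 0.585 (0.547 to 0.625) that falls short of the rule. Its nearest neighbour, the Lingo2 knockout, was 1.51 times (1.41 to 1.61) the Lingo3 level. Epgn, which encodes epigen and heads the cluster (chromosome 5, 91027464 to 91035215, plus strand), had 9, 8, 4, 6, 4 and 6 counts in the parental un-scratched, parental scratched, Lingo1, Lingo2, Lingo3 and TROY libraries. No neighbours in the order of its levels differed beyond counting error, and at this depth only large differences in Epgn could be seen, the intervals against the scratched parental library reaching from 0.121 to 2.05 in the Lingo1 and from 0.231 to 2.65 in the Lingo2 knockout.

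The cluster of Epgn, Ereg, Areg and Btc spans 376 kb. Within 500 kb on either side of it the annotation holds 16 protein-coding genes, of which 7 reached a mean of 1 CPM: these 3 ligand genes, the chemokine genes Cxcl15 and Cxcl1, the folate-cycle gene Mthfd2l and Parm1. They did not move together. Cxcl15 was lower in every knockout than in the scratched parental library. It was 4.07 (2.30 to 7.67), 2.39 (1.502 to 3.92), 3.73 (2.19 to 6.67) and 5.10 (2.79 to 10.1) times lower in Lingo1, Lingo2, Lingo3 and TROY. Cxcl15 had 67 counts in the scratched and 43 in the un-scratched parental library. The knockouts had 15, 26, 18 and 13 counts in the same order, each below 1 CPM. Cxcl15 thus reached the filter only through its higher parental levels. These calls use the scratched library alone as control, and those against the un-scratched library are not shown. Cxcl1 had folds between 1.39 and 1.49, Mthfd2l between 0.687 and 0.770 and Parm1 between 0.737 and 0.898, and none of these passed the rule.

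Upstream sequences are shown for 4 members picked with their calls known. Areg, Tgfa and Egfr were called in knockouts, while Btc, in the same cluster as Areg, was not. Ereg and Hbegf, also called in knockouts, are not shown, so the 4 sequences make no contrast between called and uncalled genes. Of the 10 members, 6 were matched in the RefSeq promoter table. Each sequence is the 250 bases before the RefSeq start in build GRCm38.p6, read 5′ to 3′ on the strand of the gene, and capitals mark motif matches on either strand. The positions are chr5:91139349-91139598 (plus) for Areg, chr5:91402995-91403244 (minus) for Btc, chr6:86194972-86195221 (plus) for Tgfa and chr11:16751953-16752202 (plus) for Egfr. None overlapped a GENCODE exon.
Areg: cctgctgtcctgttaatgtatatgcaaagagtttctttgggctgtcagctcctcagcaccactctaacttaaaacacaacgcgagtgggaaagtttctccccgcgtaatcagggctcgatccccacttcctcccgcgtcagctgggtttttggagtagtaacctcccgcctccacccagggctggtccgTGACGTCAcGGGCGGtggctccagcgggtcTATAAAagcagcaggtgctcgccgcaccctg
Btc: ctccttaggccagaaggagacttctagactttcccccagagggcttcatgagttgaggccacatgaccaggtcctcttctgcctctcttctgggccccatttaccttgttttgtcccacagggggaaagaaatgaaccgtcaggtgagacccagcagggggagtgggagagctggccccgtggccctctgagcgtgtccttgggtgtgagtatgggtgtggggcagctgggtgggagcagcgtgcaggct
Tgfa: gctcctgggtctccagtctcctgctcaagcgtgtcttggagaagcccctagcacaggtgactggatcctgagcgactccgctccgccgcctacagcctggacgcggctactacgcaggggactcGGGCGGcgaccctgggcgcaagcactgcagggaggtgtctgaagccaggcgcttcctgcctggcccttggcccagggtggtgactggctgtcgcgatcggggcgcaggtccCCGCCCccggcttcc
Egfr: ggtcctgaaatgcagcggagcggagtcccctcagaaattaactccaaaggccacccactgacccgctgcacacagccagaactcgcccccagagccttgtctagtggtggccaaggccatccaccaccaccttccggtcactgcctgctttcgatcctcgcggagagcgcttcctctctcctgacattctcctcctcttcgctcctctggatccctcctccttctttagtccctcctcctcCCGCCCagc
The 7 motifs were searched on both strands. The Areg sequence held a cyclic AMP response element (CRE, TGACGTCA) from -61 to -54 relative to the start, a GC box (GGGCGG) from -52 to -47 and a TATA box (TATAAA) from -31 to -26. Over 32536 distinct upstream sequences of this length, 1.56% held the CRE, 33.0% the GC box and 12.3% the TATA box. The Tgfa sequence held 2 GC boxes, from -126 to -121 and from -15 to -10, and the Egfr sequence 1, from -9 to -4. The Btc sequence held none of the 7. The AP-1 motif (TGANTCA, in 6.73% of all sequences), the CCAAT box (CCAAT, 33.8%), the EGR motif (GCGNGGGCG, 4.74%) and the CArG box (1.48%) matched in none of the 4, which says only that these letters are not in these windows. The GC content was 57.2% for Areg, 59.6% for Btc, 69.2% for Tgfa and 60.8% for Egfr, beside a median of 52.4% over all sequences. These matches describe letters and show no binding.

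Tgfa encodes TGF-alpha, a ligand of EGFR alone (chromosome 6, 86195223 to 86275719, plus strand). It had 14.6 CPM in the un-scratched and 15.1 CPM in the scratched parental library. The knockouts of Lingo1, Lingo2, Lingo3 and TROY had 26.9, 28.1, 34.5 and 24.7 CPM. All 4 knockouts lay above both parental libraries, and Lingo3 lay above the other 3. Tgfa was called higher in the Lingo3 knockout (2.28, 2.05 to 2.55). The folds in the others were 1.78 (1.58 to 2.004) for Lingo1, 1.86 (1.66 to 2.09) for Lingo2 and 1.63 (1.45 to 1.84) for TROY, all short of the rule. The Lingo3 level was 1.23 times (1.12 to 1.35) that of Lingo2, the next in order. Lingo2 and Lingo1 did not differ beyond counting error, nor did Lingo1 and TROY. Lingo2 exceeded TROY by 1.14 (1.03 to 1.26).

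Hbegf encodes HB-EGF, a heparin-binding ligand of EGFR and ERBB4 (chromosome 18, 36504927 to 36515805, minus strand). Its levels were 37.9 CPM un-scratched and 31.2 CPM scratched in the parental line. In the Lingo1, Lingo2, Lingo3 and TROY knockouts they were 68.9, 64.7, 60.7 and 60.1 CPM. The 4 knockouts lay close together and all lay above both parental libraries. Against the scratched parental library the folds were 2.21 (2.04 to 2.39) and 2.07 (1.91 to 2.24) in the Lingo1 and Lingo2 knockouts, which passed the rule. They were 1.94 (1.80 to 2.10) and 1.92 (1.78 to 2.08) in the Lingo3 and TROY knockouts, which did not. The line between called and not called therefore falls inside a narrow range, and the Lingo1 knockout exceeded TROY, the lowest of the 4, by 1.15 (1.07 to 1.22). The level of the control also matters for this gene. The un-scratched parental library was 1.21 times (1.11 to 1.32) the scratched one, and against it the folds were 1.82, 1.71, 1.60 and 1.59 in the same order, none of them past the rule.

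Nrg1 encodes neuregulin 1, a ligand of ERBB3 and ERBB4 (chromosome 8, 31814551 to 32884029, minus strand). It had 79 counts in the un-scratched and 173 in the scratched parental library, or 2.76 and 5.69 CPM. The Lingo1, Lingo2, Lingo3 and TROY knockouts had 4.30, 3.64, 5.71 and 4.92 CPM. The un-scratched parental library was thus the lowest of the 6, and the scratched parental and Lingo3 knockout libraries were the highest. No neighbours in this order differed beyond counting error, although the ends did, since the scratched parental library was 2.06 times (1.57 to 2.73) the un-scratched one. Against the un-scratched library the knockouts had folds of 1.56, 1.32, 2.07 and 1.78, of which that of Lingo3 passed the rule. Against the scratched library none did, with folds of 0.755 (0.593 to 0.959), 0.641 (0.497 to 0.822), 1.004 and 0.865. The scratched parental library also carried endothelial transcripts that the un-scratched one had at lower levels. Vwf stood at 5.56 against 0.558 CPM, Kdr had 74 against 12 counts and Cdh5 had 20 against 0, while Pecam1 had 8 against 9. Over all 5 endothelial markers, which include the abundant Tek, the summed level was 95.4 CPM in the scratched and 103 CPM in the un-scratched library. In the Lingo3 knockout Vwf stood at 1.21 CPM, with 16 counts of Kdr and 0 of Cdh5. The part of endothelial transcripts in the Nrg1 value of any library was not tested. The exons of Nrg1 share 482 bases with Gm26578 on the opposite strand.

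**Figure D2:**
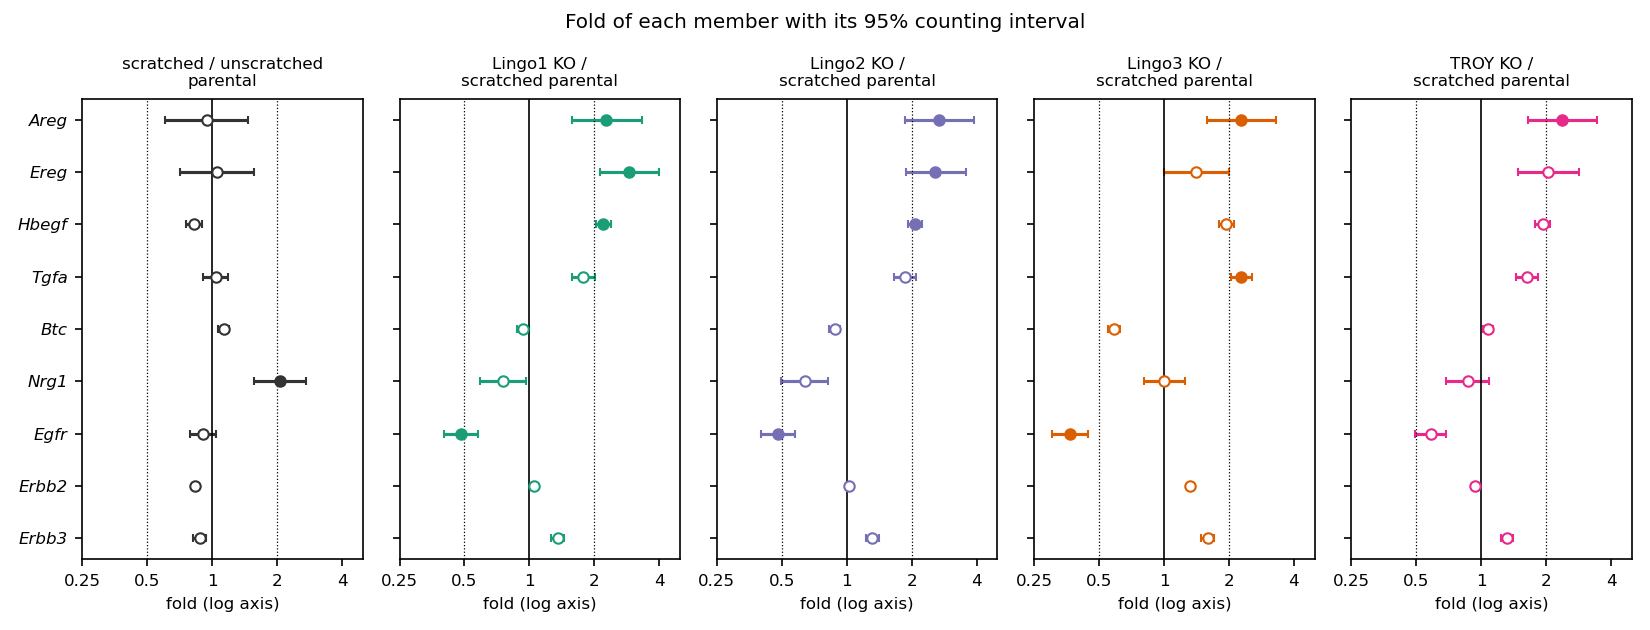
Fold of 9 members in each of the 5 comparisons (horizontal log axis, 1 panel per comparison), with 95% counting intervals as bars; filled points passed the size rule and dotted lines mark folds of 0.5 and 2. Nrg1 alone is filled for the scratch, Areg is filled in all 4 knockout panels, and Egfr is filled to the left in the Lingo1, Lingo2 and Lingo3 panels.

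Egfr, which encodes the EGF receptor (chromosome 11, 16752203 to 16918158, plus strand), went the other way from these ligands. It had 425 counts in the un-scratched and 411 in the scratched parental library, or 14.8 and 13.5 CPM. The Lingo1, Lingo2, Lingo3 and TROY knockouts had 6.53, 6.51, 4.95 and 7.88 CPM. All 4 knockouts lay below both parental libraries, which did not differ from each other beyond counting error (0.911, 0.793 to 1.05). Egfr was 2.73 times lower in the Lingo3 knockout than in the scratched parental library, beside 2.07 and 2.08 times in Lingo1 and Lingo2. In the TROY knockout the fold was 0.583 (0.495 to 0.686), short of the rule. TROY and Lingo1 did not differ beyond counting error (1.21, 0.990 to 1.47), whereas Lingo2, the next above the lowest, was 1.31 times (1.05 to 1.64) the Lingo3 level. With the un-scratched library as control the same 3 knockouts passed, at 2.27, 2.28 and 2.995 times lower.

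Erbb2, the gene of the co-receptor ERBB2 (chromosome 11, 98412470 to 98437716, plus strand), was the most abundant member. Its levels were 209 CPM un-scratched and 175 CPM scratched in the parental line, and 184, 179, 231 and 164 CPM in the Lingo1, Lingo2, Lingo3 and TROY knockouts. Erbb2 was called in no comparison. The Lingo3 knockout was the highest, at 1.32 times (1.28 to 1.37) the scratched parental level. The folds of Lingo1 and Lingo2, 1.05 and 1.03, lie so close to 1 that with total counts as the scaling the log2 fold of Lingo2 changed sign, from 0.04 to -0.03.

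Erbb3, which encodes the neuregulin receptor ERBB3, a receptor with little kinase activity of its own (chromosome 10, 128567523 to 128589652, minus strand), had 55.8 and 48.8 CPM in the un-scratched and scratched parental libraries. The knockouts had 66.0, 64.1, 77.6 and 64.2 CPM for Lingo1, Lingo2, Lingo3 and TROY. All 4 lay above both parental libraries, with Lingo3 at the top, but none passed the rule. The folds were 1.35 (1.26 to 1.45), 1.32, 1.59 (1.49 to 1.70) and 1.32. Of the 3 receptor genes, Lingo3 thus had the lowest Egfr level and the highest Erbb2 and Erbb3 levels of the 6 libraries.

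The remaining genes of the family were low. Egf had between 101 and 136 counts and was called in no comparison. Nrg2 had 19 to 32 counts and Nrg4 had 13 to 22. Nrg3 had 0 counts in all 6 libraries. Erbb4, the receptor that epiregulin, betacellulin, HB-EGF and neuregulin 1 can also bind, had 1 count in the scratched parental library, 1 in the TROY knockout and 0 in the others. A count of 0 is compatible with up to 0.133 CPM of Erbb4 at this depth.

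Levels of different genes were compared on the RPKM scale of the authors' deposited table (reads per kilobase of transcript and per 1000000 reads). In the scratched parental library, Erbb2 stood at 34.67, Btc at 19.49, Hbegf at 13.09, Erbb3 at 8.06, Tgfa at 3.32, Egfr at 1.32, Areg at 1.18, Nrg1 at 1.04 and Ereg at 0.46 deposited RPKM. The called genes Areg, Ereg and Egfr were therefore among the least abundant members, and Erbb2 exceeded Egfr by a wide margin. In the parental libraries Btc was the most abundant of 5 member ligands of EGFR (Areg, Ereg, Hbegf, Tgfa and Btc), and in all 4 knockouts Hbegf was. Egf, which is no member and is left out of the sums, stood at 0.73 to 1.02 deposited RPKM, and Epgn is not listed in that table.

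Summed over these 5 genes, ligand transcript stood at 37.7 deposited RPKM in the un-scratched and 37.5 in the scratched parental library. It stood at 56.7, 54.2, 47.4 and 54.5 in the Lingo1, Lingo2, Lingo3 and TROY knockouts, or 1.51, 1.44, 1.26 and 1.45 times the scratched parental sum. Without Btc the ratios were 2.14, 2.06, 2 and 1.88. Btc is the 1 ligand of the 5 called in no comparison, so this sum holds only ligands already called higher in at least 1 knockout. Btc held 23.9% of the ligand sum in the Lingo3 knockout, 51.9% in the scratched parental library and between 31.3% and 37.8% in the other knockouts. Hbegf made up between 45.6% and 53.3% of the sum in the knockouts and 34.9% in the scratched parental library. The summed receptor transcript was 44.1 deposited RPKM in the scratched parental library and 47.8, 46.3, 58.8 and 43.4 in the Lingo1, Lingo2, Lingo3 and TROY knockouts. Erbb2 held between 74.1% and 79.5% of it in all 6 libraries. The share of Egfr was 2.77% and 2.997% in the parental libraries and 1.32%, 1.36%, 0.816% and 1.75% in the knockouts. These sums depend on gene lengths. The lengths implied by the deposited values are 2406 bases for Hbegf and 4082 for Btc, whereas the merged GENCODE exons give 4834 and 4520. With GENCODE lengths, an alternative chosen after seeing the data, Btc stayed ahead of Hbegf in all libraries except the Lingo3 knockout, and the ligand sums were 1.38, 1.34, 1.12 and 1.38 times the scratched parental sum.

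**Figure D3:**
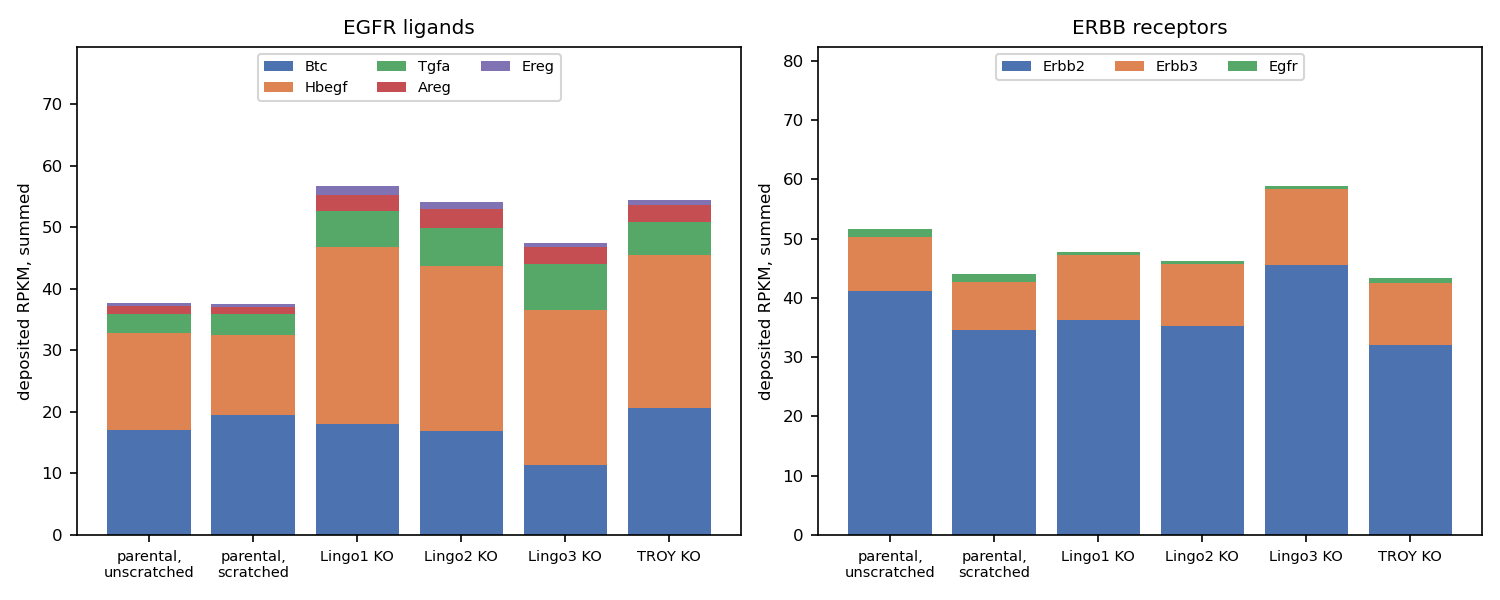
Deposited RPKM (vertical axis, starting at 0) summed over 5 ligands of EGFR (left) and 3 receptors (right) in each of the 6 libraries, as stacked bars with 1 colour per gene. The ligand bars of the knockouts reach 47.4 to 56.7 against 37.5 in the scratched parental library, and Egfr is the thin top slice of each receptor bar.

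For each called member, the genes with the nearest profile over the 6 libraries were found by the root mean square (RMS) difference of centred log2 levels among 10014 genes averaging 5 CPM or more. This is a description over 6 libraries and shows no shared control. The differences carry no counting interval, so the order of the near genes was not tested against counting error. For scale, the RMS of each member around its own mean was 0.472 for Areg, 0.539 for Ereg, 0.425 for Hbegf, 0.453 for Tgfa, 0.331 for Nrg1 and 0.545 for Egfr. The nearest to Areg were Ampd3 (RMS 0.0835), Bace2 (0.0954) and Vldlr (0.110). The nearest to Ereg were Fam25c (0.115), Trabd2b (0.152) and Tg (0.152). Hbegf lay nearest to Id1 (0.0736), Ecm1 (0.0742) and Tek (0.0818), and Tgfa to Cd44 (0.0569), Chst11 (0.0607) and Htra3 (0.0706). No gene came as near to Nrg1, whose closest were Heatr1 (0.182), Aen (0.184) and Nepro (0.185). Egfr lay nearest to Srcin1 (0.0632), Ctnna2 (0.0790) and Ttll3 (0.0859). Areg, Ereg, Nrg1 and Epgn lay below 5 CPM on average and so could not be listed as a near gene of another member.

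The pathway around the members was described by lists of genes, each set beside the median log2 fold of all tested genes, which was -0.01, 0.01, 0.02, 0.01 and 0.02 for the scratch and the Lingo1, Lingo2, Lingo3 and TROY knockouts. The ligand-shedding list covers the ADAM proteases, the iRhoms that bring ADAM17 to the cell surface, and the inhibitor TIMP3. Of its 13 genes 10 were measured, meaning a mean of at least 1 CPM, and the medians were -0.05, 0.11, -0.04, -0.01 and 0.11. The protease gene Adam8 was lower in every knockout than in the scratched parental library, where it stood at 2.60 CPM (79 counts). The Lingo1, Lingo2, Lingo3 and TROY knockouts had 0.650, 0.849, 0.394 and 0.499 CPM (18, 24, 12 and 15 counts). These levels were 3.997 (2.37 to 7.09), 3.06 (1.92 to 5.05), 6.60 (3.57 to 13.3) and 5.21 (2.97 to 9.74) times lower. Each knockout level lay below 1 CPM, so Adam8 counted as measured only through its higher parental levels. Timp3 was higher in the Lingo3 knockout, at 466 against 214 CPM (2.17, 2.11 to 2.24). The chief sheddase genes were not called: Adam17 had folds between 1.04 and 1.15 and Adam10 between 0.924 and 1.21 in the knockouts.

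The attenuation list holds ubiquitin ligases, phosphatases, LRIG proteins and other genes that turn ERBB receptors off or sort them for degradation. Of its 16 genes 15 were measured, and the medians were 0.04, 0.06, -0.11, 0.12 and 0.10. Errfi1, which encodes the EGFR inhibitor MIG6, was the 1 gene called, higher in the Lingo3 knockout at 47.7 against 17.1 CPM (2.78, 2.52 to 3.08). In the Lingo1, Lingo2 and TROY knockouts Errfi1 had folds of 1.64 (1.47 to 1.84), 1.76 (1.57 to 1.96) and 1.56 (1.39 to 1.74). None of the 18 measured genes of the adaptors and the RAS-ERK cascade and none of the 13 of the PI3K, phospholipase C gamma and STAT branch was called in any comparison. Their medians lay between 0.01 and 0.10 and between -0.04 and 0.16.

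The last list, chosen like the others with earlier results of these data known, holds transcripts known to be induced by ERK signalling. The shares of all genes beside its counts are for scale and test nothing. Of its 22 genes 21 were measured. None was called with the scratch, where the median was 0.01. In the Lingo1, Lingo2, Lingo3 and TROY knockouts 6, 5, 7 and 5 were higher, beside 1.95%, 2.12%, 4.63% and 1.06% of all genes tested, and none was lower, beside 1.67%, 1.38%, 2.56% and 1.18%. The medians were 0.53, 0.47, 0.65 and 0.51. Fosb, Egr2 and Fos, early transcription factor genes, and Dusp4 and Dusp5, which encode phosphatases of ERK, were called in all 4. Dusp5, which falls outside the naming rule, had folds of 3.20, 2.91, 2.63 and 2.46. The Lingo3 knockout had the largest Dusp4 value, 33.6 against 5.42 CPM in the scratched parental library (6.20, 5.25 to 7.35), beside folds of 2.47, 2.05 and 3.06 in Lingo1, Lingo2 and TROY. Not all genes of the list followed. Spry2, which encodes a feedback inhibitor of receptor tyrosine kinase signalling, had folds of 0.917, 0.916, 0.693 and 0.917, and Dusp6 had 1.41, 1.33, 0.943 and 1.34, none of them past the rule. Spry2 and Dusp6 are well-known ERK targets and were named after their values were seen. Many of these genes are also induced by other stimuli, and the part of EGF family signalling in their levels was not tested.

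**Figure D4:**
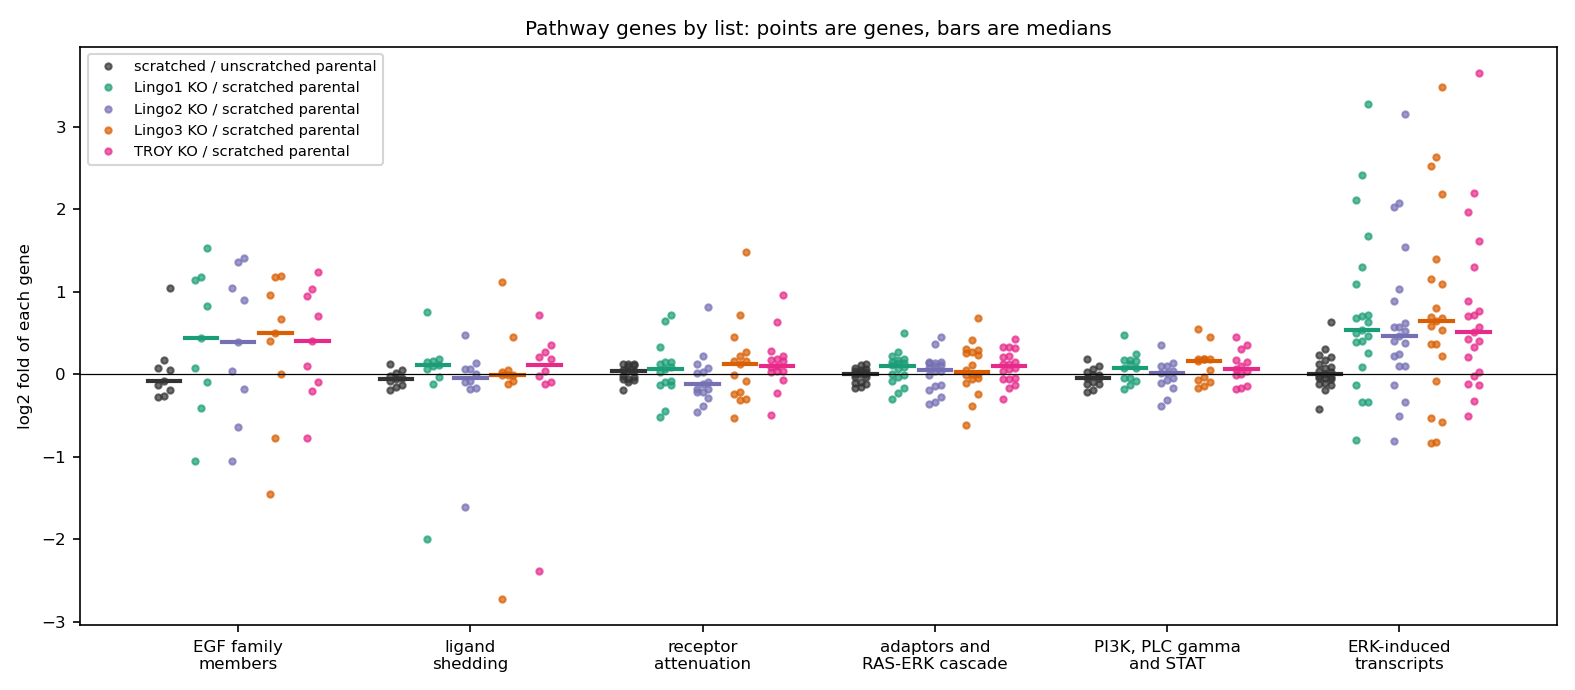
Log2 fold (vertical axis) of each measured gene in 6 lists (horizontal axis), with 1 colour per comparison; points are genes and bars are list medians. The ERK-induced transcripts have medians of 0.47 to 0.65 in the knockouts, against -0.11 to 0.16 for the lists of shedding, attenuation, the RAS-ERK cascade and the PI3K branch.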

How the data were processed

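Messenger RNA was sequenced from 6 libraries, and the members and gene lists were chosen with earlier results of these data known. The authors deposited raw read counts per Ensembl gene. Per the submitters' processing notes, Trimmomatic 0.39, STAR, HTSeq, edgeR and GRCm38 were used, and for their order, strand settings and other versions the sources used here give nothing. Of the reads counted in genes, ambiguous or without a feature, between 4.98% and 8.02% were in the summary line for no feature, which was left out. The authors' deposited second table holds values read here as RPKM, from their form (counts times a gene and a library factor over 7645 genes, residual SD 0.00097 log2), and log2 ratios of them, used as an alternative.

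Counts were scaled with TMM factors (edgeR 4.0.16, R 4.3.3). Folds, Clopper-Pearson and Poisson intervals (95%) and profiles (log2 of CPM plus 0.5) were computed in Python 3.11.15 with scipy 1.17.1. Only the size rule was tested on simulated data, as Poisson counts that hold no variation between cultures. Fold bounds against a library with 0 counts used a floor of 3 counts. Positions came from GENCODE M21 (GRCm38), which matched all 10 members, and sequences from RefSeq GRCm38.p6. All members, the remaining family, up to 4 called genes per pathway list and direction, and the 3 nearest profiles per called member are named, leaving out predicted genes and pseudogenes from the profiles. Genes of the chromosome 5 window are named besides. Alternatives were total counts or DESeq2 1.42.0 size factors as scaling, other filters, other size rules, the authors' ratios and the un-scratched control.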

Additional observations from a re-analysis of the deposited data

How the results depend on the processing

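The counts of members called were 1 for the scratch and 4, 4, 3 and 1 for the Lingo1, Lingo2, Lingo3 and TROY knockouts. They were the same with DESeq2 size factors. Members were counted whether or not they passed the filter of 1 CPM, so leaving that filter out could not change these counts. With a fold of 3 and a bound beyond 2, 0 members passed in each of the 5 comparisons, beside 0.0331% to 3.01% of all genes tested. With a fold of 1.5 and a lower limit on the bound, 6 passed in the Lingo3 knockout (Areg, Hbegf, Tgfa and Erbb3 higher, Btc and Egfr lower) and 5 in the TROY knockout (Areg, Ereg, Hbegf and Tgfa higher, Egfr lower). Of all genes tested, 17.4% and 7.07% then passed in these 2 knockouts, beside 7.19% and 2.24% under the main rule. With a mean of at least 5 CPM, which leaves out Areg, Ereg and Nrg1, 2 passed in Lingo1, 2 in Lingo2, 0 in TROY and 0 with the scratch. By the authors' log2 ratios at a size of 1, with no interval, 2 passed in TROY, Ereg joining Areg. With the un-scratched control, 2 passed in Lingo1 (Areg and Hbegf lost), 3 in Lingo2 (Hbegf lost), 3 in Lingo3 (Areg lost, Nrg1 gained) and 2 in TROY (Ereg gained). Against that control 1.8%, 1.84%, 4.31% and 1.24% of all genes tested were higher in the same order. Those lower made up 1.37%, 1.11%, 2.53% and 1.01%. With total counts as the scaling, 3 passed in each of Lingo1 and Lingo2, since Areg dropped out in Lingo1 and Hbegf in Lingo2. This scaling gave 3.59% and 3.35% of all genes tested past the rule in these 2 knockouts. No called member changed direction under any of these alternatives. No paired analysis was possible because each group has 1 library, and for the same reason no replicate could be left out. Depth limits Epgn, Areg and Ereg most, and Areg and Ereg had under 60 counts in each parental library.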
